A study of Mus musculus with 9 samples.

Results

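The genes that make steroid hormones were followed through bulk RNA sequencing of metastases and primary prostate tumours in mice. The 10 genes were Star, Cyp11a1, Cyp11b1, Cyp11b2, Cyp17a1, Cyp21a1, Hsd3b1, Nr5a1, Mc2r and Fdx1. They were a named list, found by mouse symbol, and all 10 were among the 47069 gene rows of each library. The genes were chosen by their measured counts in these same 9 libraries, so their levels are given as a description and carry no test.

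The 9 libraries came from frozen tissue of C57BL/6 mice aged about 9 to 10 months: 3 distal metastases, 3 proximal metastases and 3 primary prostate tumours. Every group carried the genotype labelled Ctnnb1pc(ex3)delta/+, a deletion of exon 3 of Ctnnb1 on 1 allele, among its engineered changes. Removal of that exon stabilises beta-catenin, the Wnt effector that Ctnnb1 encodes. No group without these changes was compared, and the promoter that drives the deletion is not given in the sources used here. The proximal metastases lay in the epididymal fat. For the distal metastases the tissue label gives the diaphragm and the growth protocol gives the lung. The samples were matched over 3 mice, but no label ties a library to a mouse, so the numbers 1 to 3 only name libraries.

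Steroid hormones are made from cholesterol in a fixed order of steps that is shared by the adrenal cortex, the testis and the ovary. Star brings cholesterol to the inner mitochondrial membrane, and Cyp11a1 cuts its side chain to give pregnenolone, the first steroid of the pathway. In the adrenal cortex, 3-beta-hydroxysteroid dehydrogenase, Cyp21a1 and Cyp11b1 then give corticosterone, the main glucocorticoid of mice, and Cyp11b2 gives aldosterone. Cyp17a1 turns the pathway towards androgens, and the adult mouse adrenal cortex, unlike the human one, makes almost none of it. The prostate uses androgens and is not known as a site where this whole pathway runs.

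Total counts were 39319712, 40408723 and 29094545 in distal 1, 2 and 3, and ranged over 37786289 to 40084408 in the proximal and 28334730 to 35565887 in the primary libraries. Levels below are counts scaled to the library total (CPM) and corrected with the trimmed mean of M values (TMM), whose factors were 0.795 in primary 2 and 0.994 to 1.05 in the others. One library stood apart for the genes described here: distal 3 had 24 genes that reached 5 CPM and at least 20 times the level of any other library. The same count was 0 in distal 1 and 2, 0, 11 and 0 in proximal 1, 2 and 3, and 23, 10 and 64 in primary 1, 2 and 3. Of the 24 genes in distal 3, 8 were steroid synthesis genes. The altered gene, Ctnnb1, stood at 3542 to 4451 CPM in the distal, 3622 to 4959 CPM in the proximal and 936 to 4394 CPM in the primary libraries, and it checks no label, since all groups share the genotype. The fitted values of single genes in the distal comparisons are therefore given with and without distal 3.

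Of the 10 genes, 8 were high in 1 of the 9 libraries, distal 3, and low or absent in the other 8. Fdx1 was present in every library and highest in distal 3, and Cyp17a1 was low in distal 3. Together the 10 genes took 25.1, 21.2 and 3198 CPM in distal 1, 2 and 3. They took 19.97, 22.3 and 24.6 CPM in proximal 1, 2 and 3, and 21.2, 61.9 and 36.7 CPM in primary 1, 2 and 3. Distal 3 lay far above every other library, whereas distal 1 and 2 lay within the range of the primary and proximal libraries. As a share of all counts, the 10 genes held 0.331% of distal 3 (95% Wilson interval 0.329% to 0.333%), against 0.00198% to 0.00493% of the other libraries. The mean of the distal group was 1081 CPM with distal 3 and 23.1 CPM without it. In these bulk samples, fewer cells of a type and less RNA per cell cannot be told apart.

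**Figure D1:**
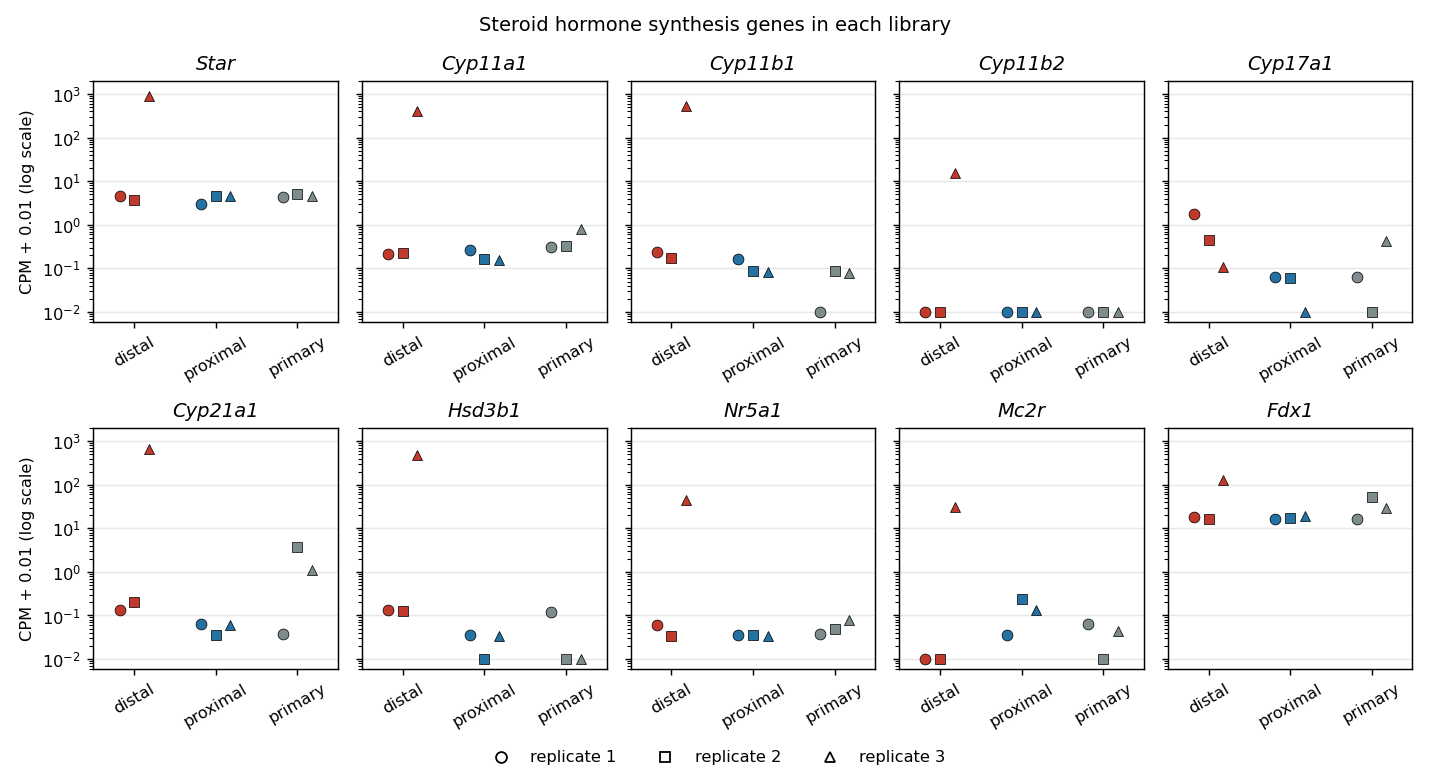
Level of each of the 10 steroid synthesis genes in each of the 9 libraries, in CPM plus 0.01 on a log scale, by group, with 1 point per library and the shape giving the library number. Distal 3 (red triangle) lies above every other library for 9 of the 10 genes, and Cyp17a1 is the exception, at 0.0997 CPM in distal 3 against 1.77 CPM in distal 1.

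The regulators of the pathway are the receptor Mc2r and the transcription factor Nr5a1. Mc2r (ENSMUSG00000045569, chromosome 18, 68406907 to 68429320 on GRCm38) encodes the receptor for adrenocorticotropic hormone, the pituitary signal that drives the adrenal cortex. It had 0, 0 and 947 counts in distal 1, 2 and 3, then 1, 9 and 5 counts in proximal 1, 2 and 3, and 2, 0 and 1 counts in primary 1, 2 and 3. At 31.5 CPM in distal 3, it was 137 times the highest other library, proximal 2, at 0.229 CPM. Without distal 3, the distal libraries were listed at 0 counts, and the proximal and primary ranges overlapped.

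Nr5a1 (ENSMUSG00000026751, chromosome 2, 38692656 to 38714542) encodes SF-1, the nuclear receptor that switches on most genes of the pathway in steroid-producing cells. It had 2, 1 and 1365 counts in distal 1, 2 and 3, against 1 count in each proximal library and 1, 1 and 2 counts in primary 1, 2 and 3. Outside distal 3 it was at the edge of detection everywhere, and the 3 groups overlapped. Its level in distal 3, 45.4 CPM, was 1329 times that of the other 8 libraries pooled, with a 95% interval of 720.3 to 2777 that covers counting error only. An antisense gene, Nr5a1os, overlaps it and had 3 counts in distal 3 and 0 to 2 counts in the others.

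Star, Cyp11a1 and Fdx1 carry out the entry of cholesterol and the first cut. Star (ENSMUSG00000031574, chromosome 8, 25806555 to 25815982) stood at 4.65, 3.71 and 889.7 CPM in distal 1, 2 and 3. It stood at 2.95, 4.64 and 4.67 CPM in proximal 1, 2 and 3, and at 4.43, 5.07 and 4.47 CPM in primary 1, 2 and 3. Star was thus present in every library at a low, even level, and distal 3 was 175 times the highest other one. It ranked 69th among all genes of distal 3. Without distal 3 the distal mean was 4.18 ± 0.66 CPM (SD, n = 2), against 4.09 ± 0.99 CPM in the proximal and 4.66 ± 0.36 CPM among primary tumours (SD, n = 3 each), and all 3 ranges overlapped.

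Cyp11a1 (ENSMUSG00000032323, chromosome 9, 58006411 to 58027023) encodes the side-chain cleavage enzyme that makes pregnenolone. It had 8, 9 and 12534 counts in distal 1, 2 and 3, then 10, 6 and 6 counts in proximal 1, 2 and 3, and 11, 8 and 24 counts in primary 1, 2 and 3. Distal 3, at 417 CPM, was 512 times the highest other library, primary 3, at 0.813 CPM. Without distal 3 the means were 0.207 ± 0.010 CPM in the distal (SD, n = 2), 0.187 ± 0.064 CPM in the proximal and 0.473 ± 0.294 CPM among primary tumours (SD, n = 3 each). The distal and proximal ranges overlapped, and primary lay above distal with a spread as wide as the gap. Gm17322, which overlaps Cyp11a1 on the same strand, had 1, 0 and 9 counts in distal 1, 2 and 3, 3, 4 and 1 counts in proximal 1, 2 and 3, and 28, 14 and 50 counts in primary 1, 2 and 3. It was thus highest in primary 3, which was also the highest library for Cyp11a1 after distal 3.

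Fdx1 (ENSMUSG00000032051, chromosome 9, 51943306 to 51963556) encodes ferredoxin, which hands electrons to the mitochondrial cytochromes P450 and also serves other mitochondrial reactions. It was the one gene of the list with a substantial level in every library: 17.9, 16.4 and 125.7 CPM in distal 1, 2 and 3, against 16.4, 17.1 and 19.5 CPM in proximal 1, 2 and 3. The primary libraries were uneven, with 16.2, 52.7 and 29.7 CPM in primary 1, 2 and 3. Distal 3 was 2.39 times primary 2, the next highest library, and 5.81 times the other 8 pooled. Without distal 3, the distal mean was 17.1 ± 1.1 CPM (SD, n = 2), against 17.7 ± 1.6 CPM in the proximal and 32.9 ± 18.5 CPM among primary tumours (SD, n = 3 each), with overlapping ranges.

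Hsd3b1 and Cyp21a1 act in the middle of the pathway. Hsd3b1 (ENSMUSG00000027871, chromosome 3, 98852194 to 98859794) encodes a 3-beta-hydroxysteroid dehydrogenase, which turns pregnenolone into progesterone. It had 5, 5 and 14624 counts in distal 1, 2 and 3, then 1, 0 and 1 counts in proximal 1, 2 and 3, and 4, 0 and 0 counts in primary 1, 2 and 3. Distal 1 and 2 also lay above the proximal and primary libraries, but on 5 counts each against 0 to 4. Distal 3 reached 486 CPM, 3890 times distal 1, the next highest. Hao2, the next gene on chromosome 3, was also uneven, with 491 counts in distal 3, 835 in primary 1, 11 in primary 2 and 0 in the other 6 libraries.

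Cyp21a1 (ENSMUSG00000024365, chromosome 17, 34801348 to 34804561) encodes 21-hydroxylase, which is needed for both glucocorticoids and mineralocorticoids. It had 5, 8 and 19537 counts in distal 1, 2 and 3, against 2, 1 and 2 counts in proximal 1, 2 and 3. The primary libraries had 1, 96 and 32 counts, so that primary 2 and 3 stood above all libraries but distal 3. Distal 3 reached 649 CPM, 173 times primary 2 at 3.74 CPM. Without distal 3 the distal range of 0.125 to 0.190 CPM lay above the proximal range of 0.0255 to 0.0522 CPM and inside the primary range of 0.0268 to 3.74 CPM. The pseudogene Cyp21a2-ps, at 14.5 CPM in distal 3 and at most 0.051 CPM elsewhere, shares 23.7% of the 50-base windows of the Cyp21a1 transcript, so the split of reads between them is uncertain. Tnxa, which overlaps Cyp21a1 on the other strand, had 18 counts in distal 3 and 0 in each other library.

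Cyp11b1 and Cyp11b2, neighbours on chromosome 15, carry out the last steps to corticosterone and aldosterone. In the adrenal cortex Cyp11b2 marks the zona glomerulosa and Cyp11b1 the zona fasciculata. Cyp11b1 (ENSMUSG00000075604, 74834125 to 74841643) had 9, 7 and 16182 counts in distal 1, 2 and 3, then 6, 3 and 3 counts in proximal 1, 2 and 3, and 0, 2 and 2 counts in primary 1, 2 and 3. Without distal 3 the means were 0.196 ± 0.041 CPM in the distal (SD, n = 2), 0.102 ± 0.047 CPM in the proximal and 0.0486 ± 0.0424 CPM among primary tumours (SD, n = 3 each), all from single-digit counts. Distal 3 reached 538 CPM, 2391 times distal 1, the next highest.

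Cyp11b2 (ENSMUSG00000022589, 74851010 to 74856318) had 470 counts in distal 3 and 0 in each of the other 8 libraries. Its level in distal 3, 15.6 CPM, was at least 1525-fold higher than the other 8 pooled, with the floor set at 3 counts over all 8. The 2 genes are close copies: their coding sequences were identical at 87.1% of 1503 aligned bases, and 19.1% of the 50-base windows of the Cyp11b2 transcript also occur in that of Cyp11b1. A stretch in which they differ is shown, bases 523 to 582 of each coding sequence, with the 24 of 60 bases that differ in capitals, because reads from such stretches are what separates one gene from the other.
Cyp11b1: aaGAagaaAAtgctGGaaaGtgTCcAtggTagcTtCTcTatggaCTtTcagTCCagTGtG
Cyp11b2: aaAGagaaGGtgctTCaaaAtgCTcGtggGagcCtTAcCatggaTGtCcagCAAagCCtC
Per kilobase of transcript, Cyp11b1 was 17.7 times Cyp11b2 in distal 3. How reads from the shared windows were assigned is not given in the sources used here, so the split between the 2 genes is uncertain.

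Cyp17a1 was the exception. Cyp17a1 (ENSMUSG00000003555, chromosome 19, 46667165 to 46673172) encodes the 17-alpha-hydroxylase and 17,20-lyase, which opens the way to androgens. It had 71, 18 and 3 counts in distal 1, 2 and 3, then 2, 2 and 0 counts in proximal 1, 2 and 3, and 2, 0 and 12 counts in primary 1, 2 and 3. Distal 1 was the highest and distal 3 the lowest of its group, though all 3 distal libraries lay above the proximal ones. With 3 counts, distal 3 stood at 0.273 times the other 8 pooled (95% interval 0.055 to 0.819, counting error only). The distal mean was 0.767 ± 0.887 CPM (SD, n = 3), and 1.10 ± 0.95 CPM without distal 3 (SD, n = 2), against 0.034 ± 0.030 CPM in the proximal and 0.153 ± 0.221 CPM among primary tumours (SD, n = 3 each).

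Compared per kilobase of the longest coding transcript within distal 3, the genes spanned a wide range. Cyp21a1 was highest at 316 CPM per kilobase, followed by Hsd3b1 at 262, Star at 219.9, Cyp11a1 at 196 and Cyp11b1 at 169.9. Fdx1 followed at 45.6, then the regulators Mc2r at 19.3 and Nr5a1 at 15.2, and Cyp11b2 at 9.61. Cyp17a1 was last at 0.0415 CPM per kilobase. With the summed length of all exons in place of the longest transcript, Cyp11a1 fell to 86.7 CPM per kilobase and changed places with Cyp11b1, and the other ranks held. In the other 8 libraries Fdx1 led, at 5.86 to 19.1 CPM per kilobase, and Star came next in 7 of them.

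**Figure D2:**
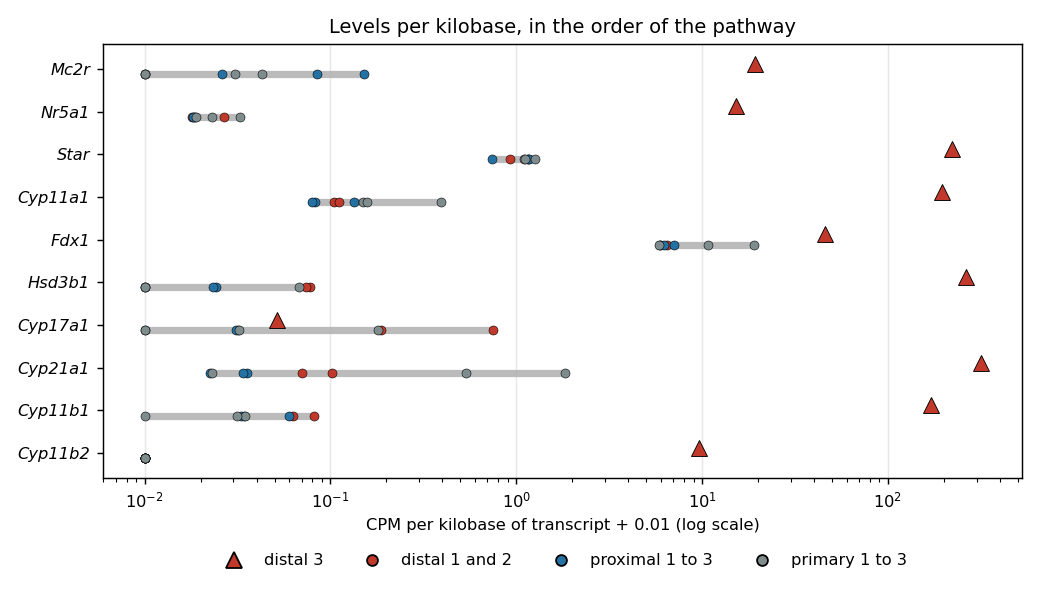
CPM per kilobase of transcript plus 0.01, on a log scale, for the 10 genes in the order of the pathway from the hormone receptor down to the last enzymes. Triangles show distal 3, small circles the other 8 libraries and grey bars their range: distal 3 lies to the right of the bar for 9 genes and inside it for Cyp17a1.

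Promoter windows came from RefSeq's promoter table (GRCm38.p6, from 250 bases before to 50 after the start). For the listed genes, windows on the chromosome of Mc2r were left out, so whether it holds Mc2r is not reported. Of the 10 genes, 3 had a window among those kept: Cyp11a1, with 2 starts, Hsd3b1 and Fdx1. Their promoters are shown because these genes were high in the same library as Nr5a1, whose product SF-1 is known to bind AGGTCA. That motif was searched on both strands, as AGGTCA and TGACCT, and a match is in capitals.
Cyp11a1, chr9:58014702-58015001, plus strand: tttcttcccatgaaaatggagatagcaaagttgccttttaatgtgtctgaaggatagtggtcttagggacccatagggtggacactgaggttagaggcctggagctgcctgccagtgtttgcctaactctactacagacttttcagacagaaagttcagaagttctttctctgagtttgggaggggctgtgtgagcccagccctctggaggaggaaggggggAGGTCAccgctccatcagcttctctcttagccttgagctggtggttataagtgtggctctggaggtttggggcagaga
Hsd3b1, chr3:98859745-98860044, minus strand: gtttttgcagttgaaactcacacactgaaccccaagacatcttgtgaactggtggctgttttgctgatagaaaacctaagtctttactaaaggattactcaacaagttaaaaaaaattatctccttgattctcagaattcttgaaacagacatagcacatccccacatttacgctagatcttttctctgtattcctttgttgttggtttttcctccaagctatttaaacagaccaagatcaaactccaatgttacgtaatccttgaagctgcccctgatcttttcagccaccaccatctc
Fdx1, chr9:51963553-51963852, minus strand: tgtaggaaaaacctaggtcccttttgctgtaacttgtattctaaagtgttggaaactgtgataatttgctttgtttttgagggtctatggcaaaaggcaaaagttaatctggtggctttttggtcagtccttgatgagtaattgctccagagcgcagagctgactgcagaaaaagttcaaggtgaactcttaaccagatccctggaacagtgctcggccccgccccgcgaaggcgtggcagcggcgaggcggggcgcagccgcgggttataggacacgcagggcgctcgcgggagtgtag
The Cyp11a1 window held the motif once, its first base at -28 from the start. The windows of Hsd3b1, of Fdx1 and of the other Cyp11a1 start held no match. Across all 32851 promoters of the same length, 16.3% held the motif, as did 24 of 122 windows (19.7%) of 100 genes from the other lists. The 122 windows left out the chromosome of Mc2r and the 32851 did not. No binding was measured in these samples, and a match is a stretch of letters only.

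The design compares distal with primary, proximal with primary, and distal with proximal tissue. These comparisons were fitted on all genes with edgeR's quasi-likelihood test over the 9 libraries, with p-values adjusted by the Benjamini-Hochberg method and a threshold of 0.05. Of the 10 genes, 5 passed the filter on low counts: Star, Cyp11a1, Cyp17a1, Cyp21a1 and Fdx1. Hsd3b1, Cyp11b1, Cyp11b2, Nr5a1 and Mc2r did not, because they had enough counts in distal 3 alone. In distal against primary tissue 0 of the 5 were called, beside 0.0879% of all 18204 genes tested. In proximal against primary tissue 0 were called, beside 0.0494%, and in distal against proximal tissue 0, beside 0% of all genes. At an unadjusted p under 0.05 the counts were 3, 0 and 4 of the 5 in the same order of comparisons, where 17.4%, 18.2% and 2.06% of all genes tested passed. DESeq2 called 0, beside 8.03%, 8.43% and 0.492% of all genes in the same order, and gave no adjusted p for 3 of the 5. With limma-voom 0 were called. Since these levels chose the genes, nothing is read from the counts.

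The fitted fold changes show how far a single library sets them. For distal against primary tissue, the log2 fold change of Star was 6.01 (SE 2.0) with all libraries and -0.14 (SE 0.34) without distal 3. Cyp11a1 went the same way, at 8.20 (SE 2.79) with distal 3 and -1.17 (SE 0.61) without it. For Cyp21a1 the values were 7.10 (SE 2.93) and -3.30 (SE 1.51), and for Fdx1 0.70 (SE 0.79) and -0.92 (SE 0.45). The sign turned for these 4 genes when distal 3 was left out. Cyp17a1 kept its sign, at 2.31 (SE 1.30) with distal 3 and 2.83 (SE 1.27) without it.

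For distal against proximal tissue, the log2 fold changes were 6.20 for Star, 9.52 for Cyp11a1, 12.21 for Cyp21a1 and 1.60 for Fdx1 with all libraries. Without distal 3 they were 0.03 for Star, 0.15 for Cyp11a1, 1.82 for Cyp21a1 and -0.04 for Fdx1. Cyp17a1 stood at 4.37 with distal 3 and at 4.88 without it. The proximal group holds no library like distal 3, so its values against primary tissue were small or negative: -0.19 for Star, -1.32 for Cyp11a1, -2.07 for Cyp17a1, -5.11 for Cyp21a1 and -0.89 for Fdx1. The negative value of Cyp21a1 follows the 96 and 32 counts of primary 2 and 3 against 1 or 2 counts in each proximal library. The median log2 fold change over the 5 genes was 6.01 in distal against primary, -1.32 in proximal against primary and 6.20 in distal against proximal tissue, where all genes tested had -0.03, -0.05 and -0.01. The comparisons share their groups, so the 3 sets of values do not stand apart from each other.

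Around these 10 genes, 5 lists of pathway genes were followed: cholesterol supply, electron transfer partners, other steroid-converting enzymes, hormone receptors with cAMP signalling, and transcription regulators. They held 56 further genes, of which 47 were tested. In each of the 3 comparisons 0 were called by edgeR, at a lowest adjusted p of 0.17 in distal against primary, 0.17 in proximal against primary and 1 in distal against proximal tissue. At an unadjusted p under 0.05, distal against primary tissue gave 13 (6 higher, 7 lower), proximal against primary 11 (4 higher, 7 lower) and distal against proximal 2 (both higher, Scarb1 and Srd5a2), beside 17.4%, 18.2% and 2.06% of all genes. DESeq2 called 4, 5 and 0 in the same order, beside 8.03%, 8.43% and 0.492% of all genes that had an adjusted p. It gave no adjusted p for 8, 9 and 9 of the 47 in that order. With limma-voom 0 were called in each. The median log2 fold change of the 47 genes was 0.12, -0.01 and 0.02 in the same order. Without distal 3, edgeR called 0 of 48 pathway genes tested, and the median was -0.23 in distal against primary and -0.08 in distal against proximal tissue. At an unadjusted p under 0.05, distal against primary tissue then gave 10 (2 higher, 8 lower) and distal against proximal 1 (Akr1c6, higher), beside 12% and 1.18% of all genes.

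Among the cholesterol supply genes, Scarb1, the receptor that takes up cholesterol from high-density lipoprotein, followed the pattern of the synthesis genes. It stood at 40.9, 44.1 and 487.6 CPM in distal 1, 2 and 3, against 38.6 to 49.2 CPM in the proximal and 39.5 to 56.2 CPM in the primary libraries. Distal 3 was thus 8.68 times the highest other library. The other list members did not follow it: Hmgcs1, an early enzyme of cholesterol synthesis, stood at 643, 614 and 561 CPM in distal 1, 2 and 3. Hmgcs1 stood at 616 to 727 CPM in the proximal libraries, and at 624, 208 and 168 CPM in primary 1, 2 and 3. For distal against proximal tissue, the log2 fold change of Scarb1 was 2.14 with distal 3 and -0.02 without it. For the whole list of 12, the median log2 fold change in distal against primary tissue was 0.58 with distal 3 and 0.28 without it, and it was 0.33 in proximal against primary tissue, with 0 called in each.

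The pathway counts against primary tissue turn on primary 1, which sat with the metastases for Hmgcs1. Without it, edgeR called 14 of 49 pathway genes tested in distal against primary tissue (10 higher, 4 lower), which is 28.6%, beside 27.4% of all genes. It called 13 in proximal against primary tissue (9 higher, 4 lower), which is 26.5%, beside 28.7% of all genes. Both shares are near those of all genes, so the counts are no result about the pathway. Of the 12 cholesterol supply genes some were called higher, such as Hmgcs1 and Srebf2, and others lower, Stard3 and Tspo. Of the 10 synthesis genes 5 were tested in that fit and 0 were called.

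Of the electron transfer partners, Fdxr, the reductase that loads Fdx1 with electrons, stood at 14.5, 14.01 and 95.95 CPM in distal 1, 2 and 3. It stood at 13.3 to 14.3 CPM in the proximal and 9.32 to 14.5 CPM in the primary libraries, so distal 3 was 6.597 times the highest other one. Por, which feeds electrons to Cyp17a1 and Cyp21a1, did not stand out, at 271 to 345 CPM in the distal libraries against 287 to 408 CPM in the proximal and 204 to 543 CPM in the primary ones. Fdxr, which serves the mitochondrial enzymes, thus stood out in distal 3, and Por, which serves the microsomal ones, did not.

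Among receptors and signalling genes, Kcnk3, a potassium channel of the adrenal cortex, stood at 0.025, 0.381 and 106 CPM in distal 1, 2 and 3, against 0.365 to 2.24 CPM in the proximal and 0.195 to 1.66 CPM in the primary libraries. Mrap, the accessory protein that Mc2r needs to reach the cell surface, stood at 0.250, 0.737 and 37.5 CPM in distal 1, 2 and 3. Its range was 0.940 to 4.03 CPM in the proximal and 0.390 to 1.85 CPM in the primary libraries. Both were highest in distal 3, with proximal 2 next. Agtr1a, an angiotensin receptor, reached 11.9 CPM in distal 3 and at most 2.22 CPM elsewhere. Prkar1a and Prkaca, the general subunits of the cAMP-dependent kinase, did not stand out in distal 3, at 433 and 89.9 CPM.

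Of the transcription regulators, Nr0b1, which encodes the SF-1 partner DAX-1, had 13 counts in distal 3 and 0 in each of the other 8 libraries. That made it at least 42.2-fold higher in distal 3, with the floor at 3 counts over the 8. Nr4a1, a nuclear receptor that hormones and stress switch on quickly, stood at 5.27, 5.45 and 41.8 CPM in distal 1, 2 and 3 and reached 28.6 CPM in primary 2. Of the other steroid-converting enzymes, Srd5a2, a 5-alpha-reductase that makes dihydrotestosterone, had 1, 1 and 85 counts in distal 1, 2 and 3, then 0 counts in each proximal library and 36, 5 and 8 counts in primary 1, 2 and 3. Cyp19a1, the aromatase that makes oestrogens, had 0 counts in distal 3.

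Markers of whole tissues were read beside these genes. The adrenal cortex list of 8 genes summed to 56.0, 59.0 and 982 CPM in distal 1, 2 and 3, against 54.6 to 67.4 CPM in the proximal and 55.4 to 93.5 CPM in the primary libraries. All 8 were highest in distal 3, and 7 of them exceeded the highest other library more than 4-fold. Akr1b7, a lipid-handling reductase of the adrenal cortex, had 10810 counts in distal 3. It also had 796 counts in primary 3, and few elsewhere. This list is not separate from the pathway: 7 of its 8 genes are also in the pathway lists, and Akr1b7 is the one that is not.

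The adrenal medulla, the catecholamine-producing core of the gland, was represented by 14 genes that have no part in steroid synthesis. They summed to 662 CPM in distal 3, against 211 to 346 CPM in the other 8 libraries, where Cyb561 alone gave 161 to 331 CPM. In distal 3, 11 of the 14 were at their highest and 9 exceeded the highest other library more than 4-fold. Ddc, Slc18a1 and Cyb561 were not at their highest there. Ddc, also an enzyme of catecholamine synthesis, stood at 2.16 CPM in distal 3 and at 7.35 CPM in primary 1. Slc18a1 and Cyb561, at 34.6 and 185 CPM in distal 3, lay inside their ranges in the others, 8.88 to 52.6 CPM and 161 to 331 CPM. Th, the first enzyme of catecholamine synthesis, had 910 counts in distal 3 and 18 in the other 8 libraries together. Pnmt, the enzyme that makes adrenaline, had 565 counts in distal 3 and 3 in the other 8 together. Chga, a secretory granule protein, stood at 134 CPM in distal 3 and at 0.0489 to 6.54 CPM in the others. The cortical and the medullary lists were thus high in the same library, and their part in the steroid synthesis levels was not tested.

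Lists for other tissues near the urogenital tract gave other values. The Leydig cell list of 4 genes summed to 3.69 CPM in distal 3 and 1.18 to 2.95 CPM in the others. The receptor gene Lhcgr had 0 counts in distal 3 and 1 in the other 8 libraries together, so it separates no library. Insl3 stood at 0.465 CPM in distal 3, inside its range of 0.262 to 0.867 CPM in the others. Hsd3b6, also on the adrenal cortex list, had 17 counts in distal 3 and 6 in the other 8 together. Hsd17b3 stood at 2.66 CPM in distal 3 and at most 2.64 CPM elsewhere. The Sertoli cell list of 5 summed to 8.44 CPM in distal 3 and 0.679 to 2.81 CPM in the others. Inha, which the adrenal cortex also makes, gave 7.84 CPM of that, and Rhox5 and Fshr were at 0. The male germ cell list of 9 summed to 0.299 CPM in distal 3 and 0.104 to 0.390 CPM in the others, with 6 genes at 0 in distal 3. The kidney list of 8 summed to 0.199 CPM in distal 3 and 0.117 to 4.47 CPM in the others, with 4 genes at 0 in distal 3.

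The lung epithelium list of 5 genes summed to 1.43 CPM in distal 3, 1.21 to 10.9 CPM in the others, and had 3 genes at 0 in distal 3, among them Sftpb. The skeletal muscle list of 8 summed to 7.20, 625 and 881 CPM in distal 1, 2 and 3, and to 2.71 to 7.33 CPM in the proximal and primary libraries. The adipocyte list of 8 summed to 23.9, 26.0 and 367.8 CPM in distal 1, 2 and 3, to 119.6, 481 and 191 CPM in proximal 1, 2 and 3, and to 352, 15.5 and 90.2 CPM in primary 1, 2 and 3. Distal 3 thus also held more muscle and fat transcripts than distal 1. The prostate epithelium list of 7 summed to 1787 CPM in distal 3 and 1365 to 7886 CPM in the others. The seminal vesicle list of 5 summed to 2.19 CPM in distal 3 and the epididymis list of 5 to 0.0332 CPM, against 3.01 to 7484 CPM and 0.0268 to 97.8 CPM in the others.

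**Figure D3:**
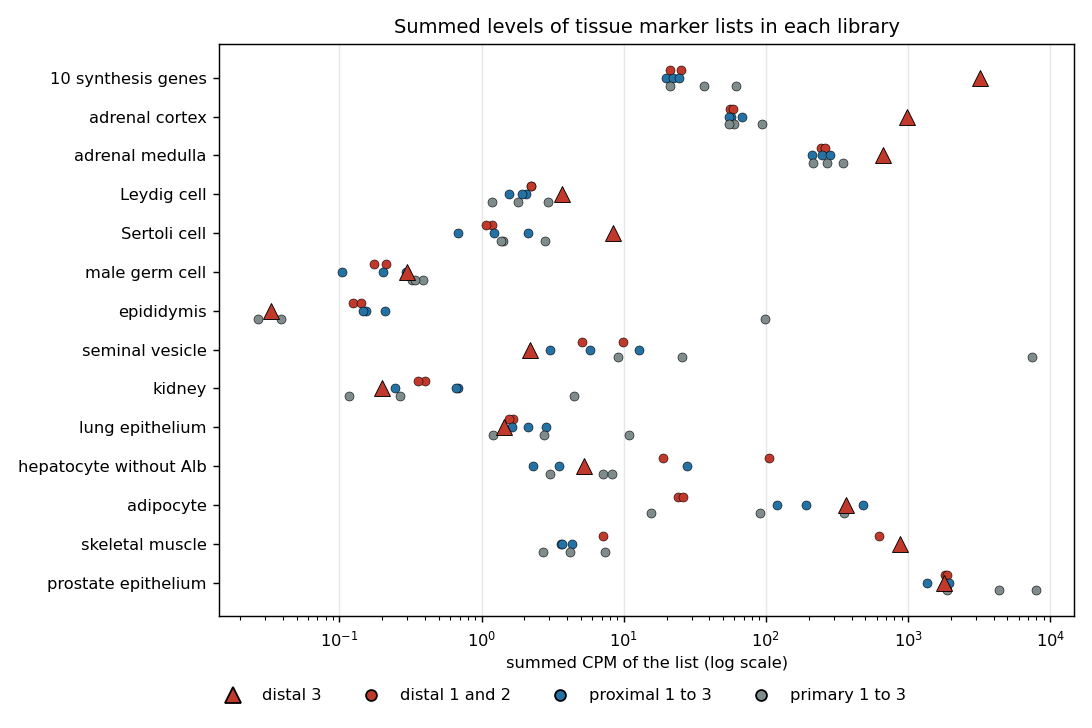
Summed CPM of the 10 synthesis genes and of 13 tissue marker lists in each library, on a log scale, the hepatocyte list without Alb. Triangles show distal 3, and circles coloured by group show the other 8 libraries. Distal 3 is highest for the synthesis genes (3198 CPM), the adrenal cortex (982 CPM) and adrenal medulla (662 CPM) lists, and also for the Leydig cell, Sertoli cell and skeletal muscle lists.

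Over all genes, those most like the 10 were again high in distal 3. Likeness was Pearson's r over the 9 libraries between a gene's log2(CPM + 1) and the mean standardised level of the members that reached 1 CPM. The 12 closest genes outside the list were Th (0.992), Pnmt (0.991), Dbh (0.988), Slc6a5 (0.988), Bcan (0.988), Akr1cl (0.988), Vgf (0.983), Scarb1 (0.982), Frmd5 (0.980), Gal (0.977), Tub (0.972) and Fdxr (0.966). Th, Pnmt and Dbh are enzymes of catecholamine synthesis, and Vgf and Gal encode secreted neuroendocrine peptides. Within the list itself, r was 0.870 for Fdx1 and at least 0.979 for the other members with a value. Cyp17a1 entered the mean but stayed under 5 CPM in every library and had no value. A high r of a member is in part built in, since the member is itself in the mean. Each of these r values rests on 1 point, distal 3: by Spearman's rank correlation, rho was between 0.00 and 0.617 for the same 12 genes, and 0 of them were among the 12 closest.

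**Figure D4:**
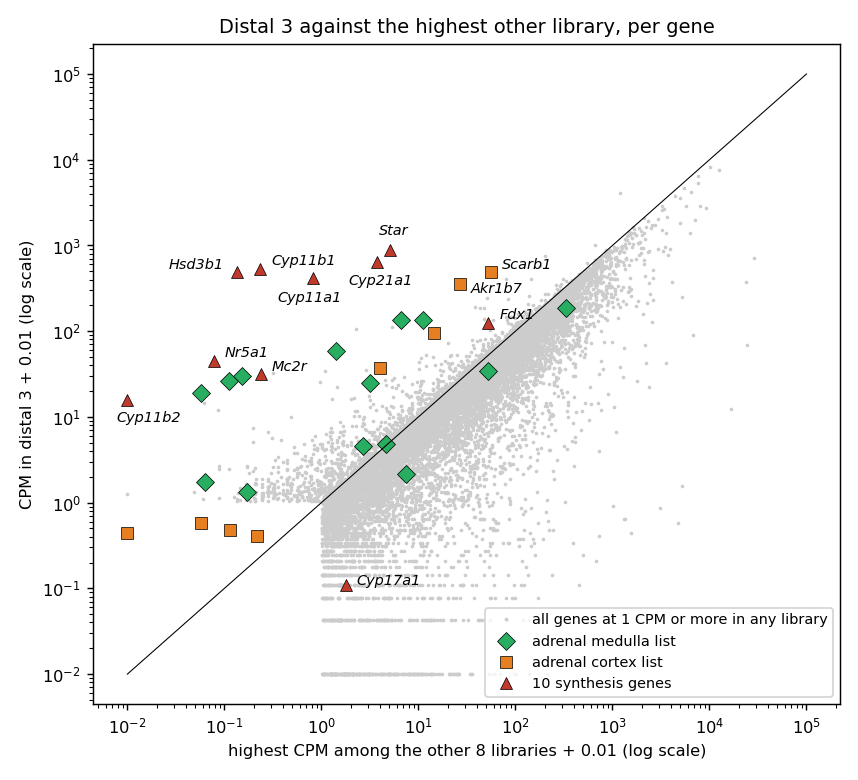
CPM in distal 3 against the highest CPM among the other 8 libraries for each gene that reached 1 CPM in any library, both plus 0.01 on log scales, with the line of equal levels. Of the 10 synthesis genes (triangles) 9 lie above the line, 8 of them far from it with most adrenal medulla (diamonds) and adrenal cortex (squares) genes, while Fdx1 lies near it and Cyp17a1 below it.

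For Cyp17a1 and Mc2r, the low counts outside distal 3 are given beside the markers of another tissue known to express the gene. Cyp17a1, which the liver of mice can also express, had its highest count, 71, in distal 1, where 6 hepatocyte genes without Alb summed to 104 CPM, the highest of the 9 libraries. Distal 2 was next for Cyp17a1, with 18 counts, and its hepatocyte sum was 18.8 CPM. Proximal 2 had a higher hepatocyte sum, 27.7 CPM, with 2 counts of Cyp17a1, and primary 3 had 12 counts of Cyp17a1 at a sum of 3.02 CPM. Akr1c6, a 17-beta-hydroxysteroid dehydrogenase of the liver, was likewise highest in distal 1, at 34 counts. These sums leave out Alb, which stood at 6824 CPM in distal 1 and was highest in proximal 1, at 7567 CPM. With Alb, the 7 genes summed to 6928 CPM in distal 1 and to 7570 CPM in proximal 1, which had 2 counts of Cyp17a1. The part of liver transcripts in the Cyp17a1 level was not tested.

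Mc2r, which mouse fat cells also express, had its highest counts outside distal 3 in proximal 2 and 3, at 9 and 5. Those libraries had adipocyte sums of 481 and 191 CPM, and Mrap stood at 4.03 and 1.64 CPM there. Primary 1 had an adipocyte sum of 352 CPM and 2 counts of Mc2r, and distal 1 and 2, with sums of 23.9 and 26.0 CPM, had 0. At these counts the order of the libraries is hardly resolved, and the part of fat transcripts was not tested.

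**Figure D5:**
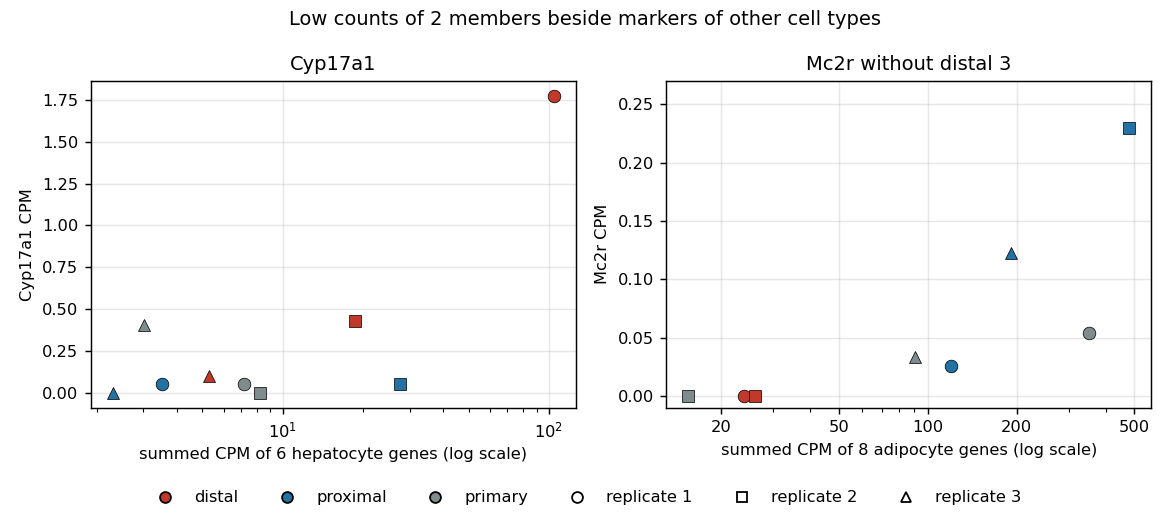
Left, Cyp17a1 CPM against the summed CPM of 6 hepatocyte genes, without Alb, in all 9 libraries. Right, Mc2r CPM against the summed CPM of 8 adipocyte genes in the 8 libraries other than distal 3. Both horizontal axes are log scales. Cyp17a1 is highest in distal 1, at 1.77 CPM and a hepatocyte sum of 104 CPM, and Mc2r in proximal 2, at 0.229 CPM and an adipocyte sum of 481 CPM.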

How the data were processed

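Bulk RNA of 9 mouse libraries was analysed. The authors deposited raw counts per Ensembl gene, 1 file per library. Per the submitters' processing notes, reads were handled with HTSeq 0.6.0, DESeq2 1.14.1 in R 3.2.3, TopHat2 2.1.0 with Bowtie2 2.2.6.0, and FastQC 0.11.4, on GRCm38.p3. The sources used here do not give the strand setting or annotation release, so counts of overlapping genes and near copies are uncertain. Of 47069 identifiers, 46488 matched a symbol. Positions and lengths came from GENCODE M21 (GRCm38).

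CPM were computed with TMM factors. Genes that passed edgeR's filterByExpr by group (minimum count 10, total 15) were tested by robust quasi-likelihood F-tests in edgeR 4.0.16 (R 4.3.3, 6 residual degrees of freedom). No label separates animals within a group from repeat samples, so p-values measure the spread between these libraries. No 2 libraries were within sampling noise (lowest chi-square per gene 23.0). The SE of a fold change was its absolute log2 value divided by the square root of the F statistic. Intervals and floors (3 counts) cover counting error only. Alternatives were median-ratio size factors, library totals, 2 other filters, DESeq2 1.42.0, limma-voom (limma 3.58.1), a fit of 2 groups alone and leaving out each library.

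The members and lists were chosen with earlier results of these data known. Named were all members, up to 4 genes per list by call and then by highest CPM, and the 12 genes most like the members that reached 5 CPM in any library. Genes named beyond that, such as Fdxr among its partners, Agtr1a, Nr0b1, Srd5a2, Cyp19a1, Akr1c6, Stard3, Tspo and Hao2, were chosen after their values were seen. One engineered change shared by all groups, and some genes, are not reported here.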

Additional observations from a re-analysis of the deposited data

How the results depend on the processing

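No synthesis gene that was tested was called under any alternative, in any comparison: all 10 were tested with no filter, 5 under the main filter, and DESeq2 gave an adjusted p for 2 of those 5. The number of all genes called moved widely. For distal against primary tissue it was 16, against 10 with library totals, 1444 with DESeq2 (205 higher, 1239 lower), 1 with limma-voom and 0 in a fit of the 2 groups alone. Leaving out each library gave 0 to 5203, the highest without primary 1. For proximal against primary tissue it was 9, against 15 with median-ratio size factors, 26 with no filter, 22 with at least 1 CPM in 1 library, 1486 with DESeq2 (136 higher, 1350 lower), 1 with limma-voom and 0 in a fit of the 2 groups alone. Leaving out each library gave 0 to 5447, the highest without primary 1. For distal against proximal tissue it was 0, against 85 with DESeq2 (81 higher, 4 lower), and 0 to 38 when each library was left out, 38 without distal 1. The cause was not tested. Pathway genes called, an alternative added after seeing the data, were 4, 5 and 0 with DESeq2 for distal against primary, proximal against primary and distal against proximal tissue. They were 0 to 14, 0 to 13 and 0 when each library was left out.

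Of 180 alternative values of the synthesis genes' fold changes, 166 stayed within 1 SD and 14 moved further. That SD combined the variances of the log2 levels within both groups compared. Where it took in distal 3 it was wide for genes such as Star, so the count of 166 says little about stability. Of these 14, 6 came from leaving out distal 3, and the others from Cyp17a1, Cyp21a1 or Cyp11a1 at low counts. The summed level of the 10 genes in distal tissue was 1081 CPM, 1068 CPM with median-ratio size factors and 1118 CPM with library totals. Leaving out each distal library gave 23.1 to 1611 CPM, the lowest without distal 3. No paired analysis was possible because no label says which libraries come from the same mouse, and the library numbers follow accession order. With 3 libraries a group and 1 that carries the pattern, a group mean says little about a distal metastasis in general.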

Other observations

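Genes outside every list also separated distal 3 from the other libraries, and they are named after their values were seen. Abcb1b, a drug efflux transporter, stood at 110.4 CPM in distal 3 and at most 5.32 CPM in the other 8 libraries. Ucp1, the uncoupling protein of brown fat, stood at 34.1 CPM in distal 3 and at most 1.07 CPM elsewhere. Akr1cl, an aldo-keto reductase, stood at 32.9 CPM in distal 3 and at most 0.305 CPM elsewhere, and Dlk1, a membrane protein of progenitor and endocrine cells, at 25.6 CPM and at most 0.954 CPM.

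Beside Cyp21a1 on chromosome 17, the complement gene C4a had 75 counts in distal 3 and 8 to 32 counts in the others, while Stk19, the gene after it, stood at 13.96 CPM in distal 3, inside its range of 13.3 to 49.1 CPM in the others. Beside Star on chromosome 8, Ash2l and Lsm1 had 2209 and 639 counts in distal 3, within their ranges in the others.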
